A study of Mus musculus with 31 samples.

Results

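The response of the uterus to 17β-estradiol (E2) was measured in mice whose estrogen receptor α (ERα) is kept from the plasma membrane, by setting the 4 arrays labelled MISS KO E2 against the 4 labelled MISS KO PLB (placebo). These 8 arrays, of 31 in the series, were chosen by their labels alone, and each non-control probe entered. The females were C57BL6/N, had their ovaries removed at 4 weeks of age and rested for 3 weeks on normal chow. They then received castor oil under the skin, without hormone (placebo) or with 8 µg/kg E2, and the uterus was taken after 6 h. Every animal of both groups carried the MISS mutation, which the labels abbreviate only. From knowledge of the line outside the labels, it is a change at the palmitoylation site of ERα, carried in all cells of the body on both alleles, so the uterus also developed with it. The 8 arrays of MISS WT animals (4 placebo, 4 E2) of the same substrain, surgery and dosing served as the comparison. The remaining arrays came from AF2 WT and AF2 KO animals under placebo or E2, a line whose wild type is of another substrain. They entered the filter on dim probes, the choice of probes and the estimate of the spread behind the p-values. AF2 WT also served to choose the genes of 1 summary score. The labels give each array its own number without saying whether it stands for 1 animal or a pool, so p-values measure the spread between these samples.

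ERα is a ligand-activated transcription factor that binds estrogen response elements and changes transcription in the nucleus. A small share of the receptor is palmitoylated, sits at the plasma membrane in caveolae and signals through kinases and nitric oxide synthase within minutes. In the uterus of an ovariectomised mouse, a single dose of E2 first gives immediate early genes, water uptake, hyperaemia and a burst of RNA and protein synthesis, and later epithelial DNA synthesis and cell division.

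Total RNA of whole uterus was labelled with a single dye and hybridised to Agilent mouse arrays. Levels are log2 processed signal relative to the 75th percentile of the array's own signals, so a level of 0 is that percentile and a change of 1 is 2-fold. Changes are E2 minus placebo with the standard error of the limma fit, and those of genes that were not called are given as differences. A gene was called, and is said here to have risen or fallen, at a limma adjusted p (Benjamini-Hochberg, over all 27060 genes tested) below 0.05. The 75th percentile lay between 707 and 923 intensity units on the 8 arrays, the scanner marked 61.8% to 76.0% of probes as well above background, and no spot reached saturation. Levels of all genes correlated at 0.988 to 0.995 among the placebo arrays, 0.983 to 0.992 among the E2 arrays and 0.938 to 0.948 between them. Each of 4 slides held 1 placebo and 1 E2 array of the mutant, so slide and treatment were not confounded. Markers of uterine tissue were well above background on all 8 arrays for 15 of 15 stromal, 14 of 14 smooth muscle and 18 of 18 epithelial genes. Because whole organs were used, fewer cells of a type and less RNA per cell cannot be told apart.

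Esr1, which encodes ERα itself, lay at 3.25, 3.22, 3.38 and 3.19 on the placebo arrays and 3.41, 2.84, 3.36 and 3.37 on the E2 arrays. The groups overlapped, with E2 replicate 2 the lowest of all. The difference was −0.011 ± 0.12 (limma adjusted p = 0.947), but it was −0.35 (adjusted p = 0.0353) after quantile normalization and −0.38 (adjusted p = 0.0195) in the authors' value table, and it is from the brightest of 4 Esr1 probes. Of the other 3, in order of brightness, 1 rose by 0.62 (adjusted p = 3.22e-06 over probes) and 2 were not called, with differences of 0.042 (adjusted p = 0.827) and 0.35 (adjusted p = 0.206). The arrays measure the transcript, so they do not check where the mutant protein sits.

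E2 changed 57.3% of the tested genes in the mutant uterus: 8140 rose (30.1%) and 7374 fell (27.3%). At 2-fold or more, 7047 genes (26%) were called, 3501 higher and 3546 lower. By at least 4-fold 852 genes rose and 1034 fell, by at least 8-fold 284 rose and 255 fell, and by at least 32-fold 42 rose and 12 fell. For 13922 of the 15514 called genes the placebo and E2 arrays did not overlap, against 14370 (53.1%) of all genes tested, and 15217 changed in the same direction on each of the 4 slides. The call rate depended on brightness: with genes split by mean level into 3 equal groups, 37.0% of the dimmest, 63.6% of the middle and 71.4% of the brightest group were called. Of 3940 long intergenic noncoding RNA features, 622 rose and 856 fell (37.5% called, against 60.7% of the other genes). Scaling each array to its median instead of its 75th percentile moved the median change of all genes from 0.034 to 0.16 and the higher share of the calls from 52.5% to 60.1%, so small changes depend on the scaling.

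**Figure D1:**
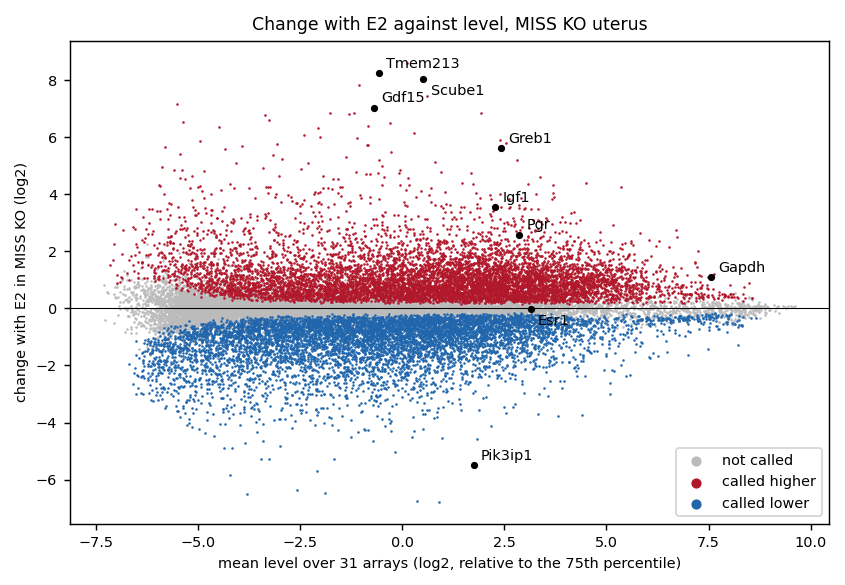
Change with E2 in the MISS KO uterus (vertical axis, log2) against the mean level over 31 arrays (horizontal axis, log2 relative to the 75th percentile), with 1 point a gene, red where called higher, blue where called lower and grey where not called. Called genes lie at all levels, and the labelled genes run from Tmem213 at 8.24 to Pik3ip1 at −5.50, with Esr1 on the line at 0.

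The 12 largest rises included a transmembrane protein, stress hormones, a mitochondrial enzyme of the folate cycle, a cardiac myosin and products of the uterine epithelium. Tmem213, a small transmembrane protein, lay at −4.32, −5.60, −4.93 and −4.62 on the placebo arrays and 3.49, 3.27, 2.98 and 3.76 on the E2 arrays. The groups stood far apart, and no array of either came near the other. The rise was 8.24 ± 0.28 or 303-fold (limma adjusted p = 2.03e-18), and the probe lies at chr6:38065689-38065748, plus strand (mm9, per the file headers). Scube1, a secreted and cell-surface protein with EGF-like domains, rose by 8.05 ± 0.40 or 265-fold, from −3.26 ± 0.45 to 4.79 ± 0.20 (mean ± SD, n = 4). Myh7, the slow myosin heavy chain of heart and skeletal muscle, rose by 7.44 ± 0.21, or 174-fold. Adamts4, a protease that cleaves the proteoglycans versican and aggrecan, rose by 6.84 ± 0.29. Krt87, a hair-type keratin, rose by 6.78 ± 0.27 and Trim15, a member of the tripartite motif family, by 6.59 ± 0.40, each from placebo levels close to background (4.36 and 4.33 with normexp background correction, which shrinks the changes of dim probes). Other folds from low placebo levels, here and below, such as that of Tmem213, carry the same limit.

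Gdf15, a hormone of the TGF-β superfamily that stressed cells secrete, lay at −3.53, −4.41, −3.65 and −3.80 under placebo and 3.36, 3.13, 3.06 and 3.23 under E2, a rise of 7.04 ± 0.29 or 132-fold (limma adjusted p = 6.64e-17). Its placebo arrays spread more widely than its E2 arrays, and the groups did not overlap. Fgf21, a metabolic hormone induced by amino acid shortage, was well above background on 0 of 4 placebo and 4 of 4 E2 arrays, and E2 was at least 32.9-fold higher. Here and below, "at least" sets the bright group's mean against the dimmest signal still well above background on the arrays of the other group, or the probe's own signal where that was higher. Ces1a, a carboxylesterase, was likewise at least 21.2-fold higher with E2. Mthfd2, the mitochondrial methylenetetrahydrofolate dehydrogenase, lay at −3.96, −4.38, −3.75 and −4.21 and then 2.86, 2.77, 2.52 and 2.96, a rise of 6.86 ± 0.29 or 116-fold.

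Among the tissue kallikreins, serine proteases that release kinins and process growth factors, 13 of 13 tested members were called higher, by 1.48 to 6.81. On the placebo arrays 9 of them were well above background throughout and 3 on none. A member that dim under placebo could hardly have been called lower. Klk1 lay at −4.58, −4.41, −4.22 and −4.37 on the placebo arrays and 2.75, 2.23, 2.39 and 2.29 on the E2 arrays. All E2 arrays lay above all placebo arrays, which were tightly grouped. The rise was 6.81 ± 0.17, 112-fold, with a limma adjusted p of 1.88e-20. Klk1b5 rose by 6.51 ± 0.20. Klk1b4, a subunit of the nerve growth factor complex, was chosen after its values were seen, for its likeness to Klk1, and rose by 6.31. Of the 78 pairs of the family's probes 6 match at 80% or more of their overlapping bases, so that 1 transcript may reach both probes of such a pair. The 60-base probes of 1 such pair, Klk1 and Klk1b4, are shown, 5′ to 3′, from the deposited array annotation, with the bases that differ in capitals.
Klk1: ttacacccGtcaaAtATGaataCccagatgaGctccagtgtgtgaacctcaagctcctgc
Klk1b4: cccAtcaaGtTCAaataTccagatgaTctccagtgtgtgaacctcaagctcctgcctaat
Over their overlap of 55 bases, 48 match and 7 differ. The probes map to chr7:51484170-51484325 and chr7:51466302-51466457, plus strand of the same build, and each span is longer than the probe itself. The probes of Egfbp2 and Klk1b26 are identical over 55 bases, so those values cannot be assigned to 1 gene. In the small proline-rich protein family, whose members are cross-linked into the cornified envelope, 5 of 6 tested Sprr2 genes rose, by up to 7.83 for Sprr2f. All 6 were well above background on all E2 arrays, but 3 on all placebo arrays and 1 on no placebo array. Sprr2a1, Sprr2h and Sprr2i were on the array but not among the tested genes.

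**Figure D2:**
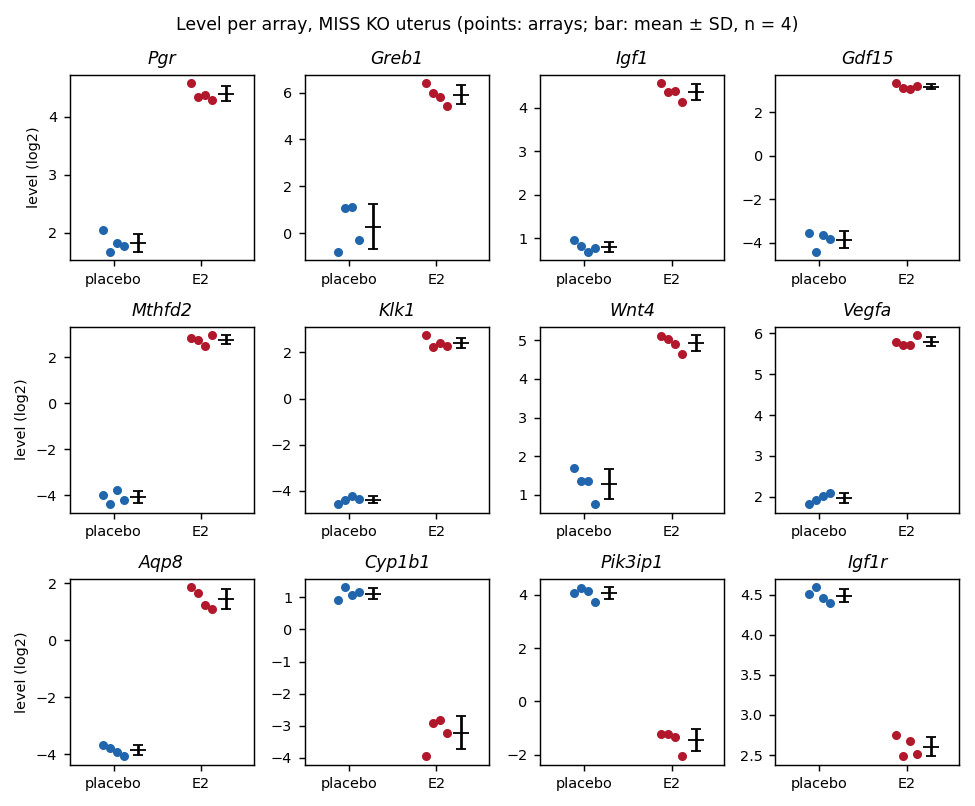
Levels of 12 genes on each MISS KO array (vertical axis, log2 relative to the array's 75th percentile, each panel with its own range), blue for placebo and red for E2, with the mean and SD of 4 arrays beside the points. For each of the 12 genes the placebo and E2 arrays do not overlap: Igf1r, Pik3ip1 and Cyp1b1 lie lower with E2 and the other 9 higher.

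The largest falls included signalling, trafficking and developmental genes. Pik3ip1, a membrane protein that inhibits the catalytic subunit of phosphatidylinositol 3-kinase (PI3K), lay at 4.07, 4.25, 4.14 and 3.73 and then −1.23, −1.204, −1.33 and −2.06, a change of −5.50 ± 0.22 or 45.4-fold lower (limma adjusted p = 5.16e-17). E2 replicate 4 was the lowest array, and the groups stayed far apart. Nsg2, a vesicle trafficking protein of neurons, changed by −5.02 ± 0.19 (−3.07 over the mean of its probes), Chst9, a sulfotransferase of N-acetylgalactosamine, by −5.27 ± 0.36, and Tbx6, a T-box transcription factor of the mesoderm, by −4.64 ± 0.19.

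Of the other largest falls, 6 were not well above background on any E2 array. Cfc1, a co-receptor of Nodal, was at least 22.6-fold lower with E2, and Ptgdr, a receptor of prostaglandin D, at least 17.4-fold lower. Car8, a carbonic anhydrase-related protein, was at least 23.9-fold lower, Scel, a precursor of the cornified envelope, at least 17-fold, Rgsl1 at least 16.9-fold and Topaz1, a germ cell gene, at least 8.08-fold. Sox1ot, a noncoding transcript that overlaps Sox1, changed by −6.47 ± 0.31 (−3.53 with normexp) and stood above background on 2 of 4 E2 arrays. In MISS WT each gene named here among the largest rises and falls had the same direction. The changes there ran from 4.69 to 8.02 among the rises and from −6.88 to −4.31 among the falls. The genes were ranked by their change in the mutant alone. The MISS WT arrays did share in the estimate of the spread, the filter on dim probes and the choice of the brightest probe.

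Of 38 tested genes known as E2-induced in the uterus, 31 rose and 3 fell, with a median change of 2.49 against 0.034 over all genes. The counts of this and each later list stand beside 30.1% of all genes that rose and 27.3% that fell. The lists were made with earlier results of these data known, so their counts describe them and do not test them. Pgr, the progesterone receptor, lay at 2.04, 1.67, 1.81 and 1.77 under placebo and 4.58, 4.35, 4.38 and 4.29 under E2. The groups were narrow and well separated. It rose by 2.58 ± 0.11 or 5.97-fold (limma adjusted p = 1.68e-16). Greb1, a chromatin-bound partner of ERα, lay at −0.79, 1.07, 1.13 and −0.28 and then 6.41, 5.98, 5.81 and 5.44. Placebo replicates 2 and 3 stood above replicates 1 and 4, and all 4 stayed below the E2 arrays. It rose by 5.63 ± 0.45 or 49.4-fold. Ramp3, the receptor activity modifying protein that makes an adrenomedullin receptor, and Inhbb, the activin βB chain, also had replicates 2 and 3 above replicates 1 and 4 among the placebo arrays (0.015, 1.05, 1.13 and 0.12, and 0.70, 1.90, 1.47 and 0.77) and rose by 5.20 ± 0.31 and 3.86 ± 0.31.

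The 3 members that fell were Txnip, an inhibitor of thioredoxin (−2.15), Fzd2, a Wnt receptor (−1.63), and the chemokine Cxcl12 (−0.70). Those not called were Ltf, C3, Ccnd1 and Sfrp4. Ltf, lactotransferrin, the classical late secretory product, lay at 1.75, 2.01, 2.38 and 2.13 under placebo and 2.90, 3.39, 1.74 and 1.66 under E2, a difference of 0.36 ± 0.46 (limma adjusted p = 0.547). E2 replicates 1 and 2 stood above all placebo arrays and replicates 3 and 4 below all of them. C3, a complement component secreted by the epithelium, had a difference of 0.21 ± 0.24 (adjusted p = 0.493), Ccnd1, cyclin D1, one of −0.039 ± 0.15 (adjusted p = 0.855) and Sfrp4, a secreted Wnt inhibitor, one of −0.32 ± 0.21 (adjusted p = 0.21).

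Immediate early genes, which stimulated cells transcribe without new protein synthesis, were raised after 6 h: 24 of 26 rose and 1 fell, with a median of 2.04. Nr4a1, an orphan nuclear receptor, lay at 3.32, 2.09, 1.89 and 2.55 and then 5.74, 5.92, 4.92 and 6.59, a rise of 3.33 ± 0.47 (limma adjusted p = 7.03e-07). Fos, an AP-1 subunit, lay at 0.88, −0.0019, −0.71 and 0.88 and then 3.51, 3.28, 2.70 and 4.45, a rise of 3.22 ± 0.44 (adjusted p = 5.13e-07). For both, the arrays of each group spread over more than 1 log2 unit, replicate 4 was the highest E2 array, and the groups did not overlap. Fosl1, another AP-1 subunit that was close to background under placebo, rose by 3.26 ± 0.45 (1.23 with normexp), Ier3, an early gene of stress and survival, by 3.14 ± 0.15 and Myc, a transcription factor of growth, by 1.80 ± 0.10. Klf6, a Krüppel-like factor, fell (−0.96), and Jun, the main partner of Fos, had a difference of −0.20 ± 0.14 (adjusted p = 0.246).

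The genes that build ribosomes and charge transfer RNA rose almost without exception. All 39 tested ribosome biogenesis genes were called higher, from 0.52 to 4.25 with a median of 1.97. The mean level of the list ran from 1.53 to 1.63 on the placebo arrays and from 3.50 to 3.68 on the E2 arrays, without overlap. Rrp12, a ribosomal RNA processing factor, rose by 4.25 ± 0.12 or 19-fold, Bysl, which matures the small subunit, by 3.52 ± 0.13, Ddx21, a nucleolar RNA helicase, by 3.37 ± 0.11, and Bop1, which matures the large subunit, by 2.90 ± 0.11. Of 19 tRNA synthetases 18 rose, with a median of 2.09. Aars, which charges alanine, lay at 2.48, 2.17, 1.96 and 1.86 and then 6.31, 6.36, 5.95 and 6.01, a rise of 4.04 ± 0.18 (limma adjusted p = 4.42e-16). Yars, for tyrosine, rose by 3.67 ± 0.18, Tars, for threonine, by 2.96 ± 0.11 and Mars1, for methionine, by 2.90 ± 0.10. Qars, for glutamine, lay at 4.31, 4.42, 4.32 and 4.24 and 4.35, 4.43, 4.20 and 4.35 (difference 0.010 ± 0.085, adjusted p = 0.933).

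Genes of serine and one-carbon metabolism and of the amino acid stress response, which the transcription factor ATF4 controls in many cells, rose in 33 of 33 cases, with the highest median of the lists described here (2.73). Beside Mthfd2, Gdf15 and Fgf21, Chac1, which degrades glutathione, lay at −0.90, −0.73, −1.16 and −0.76 and then 4.23, 4.48, 3.71 and 3.18, a rise of 4.79 ± 0.24 with no overlap. In nucleotide and polyamine synthesis, 18 of 24 rose and 1 fell. Srm, spermidine synthase, rose by 3.51 ± 0.10, Ctps, which makes cytidine triphosphate, by 3.09 ± 0.20 and Umps, which makes uridine monophosphate, by 1.90 ± 0.13. Paics, a purine synthesis enzyme, had a difference of −0.065 ± 0.11 (limma adjusted p = 0.654) and Sat1, which acetylates polyamines, one of 0.052 ± 0.094 (adjusted p = 0.67).

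Genes of protein folding and of lipid synthesis also rose in most cases. In the endoplasmic reticulum 21 of 23 chaperone and unfolded protein response genes rose (median 0.96, and 0.49 with 18 called after quantile normalization): Manf, a secreted stress protein, by 2.35 ± 0.16, Hyou1, a chaperone, by 2.26 ± 0.25 (1.49 with normexp), Dnajb11, a co-chaperone, by 2.25 ± 0.11 and Creld2, a stress-induced resident, by 2.07 ± 0.14. Sel1l, of the degradation complex, had a difference of 0.24 ± 0.13 (limma adjusted p = 0.131). Of 16 cytosolic heat shock genes 15 rose (median 1.27), Hsph1 by 3.11 ± 0.22, Hspa4 by 2.4996 ± 0.18, the mitochondrial chaperonin gene Hspd1 by 1.92 ± 0.093 and Hsp90aa1, a chaperone of steroid receptors, by 1.90 ± 0.15, and Hspb1 had a difference of 0.20 ± 0.13 (adjusted p = 0.184). Of 28 sterol and fatty acid synthesis genes 24 rose and 1, the desaturase Scd2, fell (−0.58), with a median of 1.77. Idi1, isopentenyl diphosphate isomerase, rose by 3.67 ± 0.19 and Cyp51, lanosterol demethylase, by 3.40 ± 0.18. Pmvk and Nsdhl, enzymes of the same pathway, had differences of 0.22 ± 0.10 (adjusted p = 0.0696) and 0.17 ± 0.19 (adjusted p = 0.467).

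**Figure D3:**
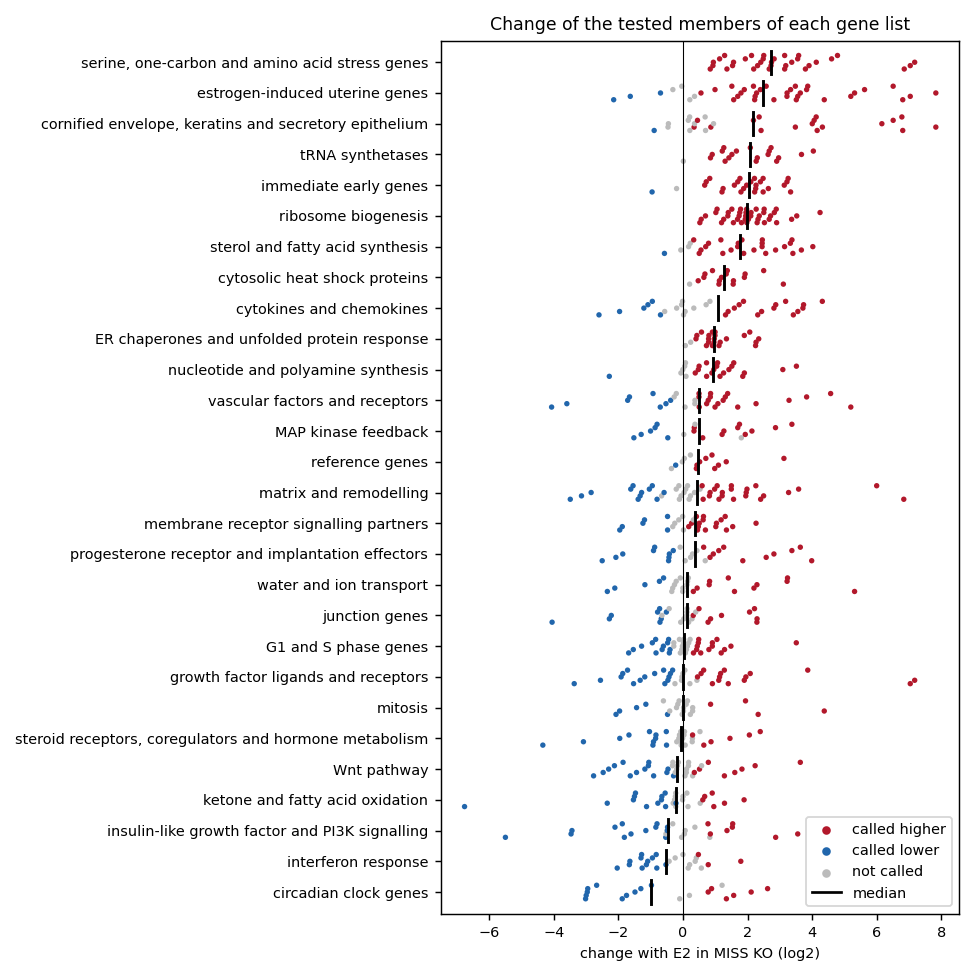
Change with E2 in the MISS KO uterus (horizontal axis, log2) of each tested member of 28 gene lists (rows), with red points called higher, blue called lower, grey not called, and a bar at the list's median. Medians run from 2.73 for serine, one-carbon and amino acid stress genes to −0.98 for circadian clock genes, and ribosome biogenesis genes lie entirely above 0.

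In the insulin-like growth factor and PI3K list, 7 of 27 genes rose and 13 fell (median −0.48). Igf1, the growth factor that stroma supplies to the epithelium, lay at 0.96, 0.83, 0.69 and 0.77 under placebo and 4.57, 4.37, 4.38 and 4.13 under E2. Both groups were narrow and far apart. It rose by 3.55 ± 0.13 or 11.8-fold (limma adjusted p = 5.07e-18), and its receptor gene Igf1r moved the other way, from 4.51, 4.59, 4.46 and 4.39 to 2.74, 2.49, 2.67 and 2.52 (−1.88 ± 0.090, 3.69-fold lower, adjusted p = 1.51e-15). Irs2, an adaptor of the insulin receptors, changed by −3.47 ± 0.19 and Sesn1, a stress-responsive inhibitor of mTORC1, by −3.44 ± 0.13, both called lower. Ddit4, another mTORC1 inhibitor, had a difference of 0.83 ± 0.38 (adjusted p = 0.0681) and Igfbp2, a binding protein, one of −0.53 ± 0.25 (adjusted p = 0.0702).

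Among 35 genes of the Wnt pathway, which patterns the uterus and acts in implantation, 8 rose and 14 fell. Of the ligands, Wnt4 lay at 1.69, 1.36, 1.36 and 0.76 and then 5.12, 5.05, 4.90 and 4.65 and rose by 3.63 ± 0.23 (limma adjusted p = 4.05e-13), Wnt7a, of the luminal epithelium, rose by 1.604 ± 0.19, and Wnt6 fell (−2.47 ± 0.21). The agonist Rspo3 (−2.77 ± 0.15) and the secreted inhibitor Sfrp2 (−2.30 ± 0.14) also fell. The inhibitor Dkk2 had a difference of 0.30 ± 0.17 (adjusted p = 0.133) and the receptor Fzd4 one of −0.33 ± 0.21 (adjusted p = 0.201).

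Of 26 effectors of the progesterone receptor and implantation, 11 rose and 9 fell. Ihh, the hedgehog ligand of the epithelium, lay at −2.06, −1.73, −1.85 and −2.13 and then 1.81, 2.49, 1.9996 and 1.89, a rise of 3.99 ± 0.61 (limma adjusted p = 3.05e-06) with no overlap. Lif, the cytokine that triggers implantation, rose by 2.82 ± 0.28 (1.34 with normexp) from a low level, and Errfi1, a feedback inhibitor of the EGF receptor, by 3.37 ± 0.26. Hoxa11, a homeobox gene of the stroma, had a difference of 0.29 ± 0.16 (adjusted p = 0.119) and Fgf9 one of 0.43 ± 0.23 (adjusted p = 0.119). Among 37 growth factor ligands and receptors, 15 rose and 15 fell. Beside Gdf15, Fgf21 and Inhbb, the stromal ligand Fgf10 changed by −3.37 ± 0.17 and was called lower, while Tgfa had a difference of 0.21 ± 0.11 (adjusted p = 0.0979) and Met, the receptor of hepatocyte growth factor, one of −0.25 ± 0.13 (adjusted p = 0.0981).

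Vascular genes rose in 18 of 31 cases and fell in 8. Vegfa, the main factor of vascular permeability and growth, lay at 1.82, 1.93, 2.03 and 2.09 and then 5.79, 5.71, 5.73 and 5.96, a rise of 3.83 ± 0.13 or 14.2-fold (limma adjusted p = 2.03e-18). Both groups were narrow, with a wide gap between them. Pgf, placental growth factor, rose by 4.57 ± 0.16 and Nos3, endothelial nitric oxide synthase, by 2.26 ± 0.14, whereas Angpt1, which quiets vessels through the receptor Tek, fell (−4.07 ± 0.23, and −2.70 with normexp). Aplnr, the apelin receptor, and Calcrl, the partner of Ramp3, had differences of 0.37 ± 0.20 (adjusted p = 0.128) and 0.37 ± 0.22 (adjusted p = 0.156). Beside this, 4 of 15 endothelial markers rose and 3 fell (median −0.030, and 0.093 with median scaling). The blood markers Hba-a1, α-globin, and Alas2, of erythroid haem synthesis, rose by 1.85 ± 0.46 and 1.76 ± 0.49, and Hba-a1 lay at 5.30, 5.01, 3.17 and 3.92 under placebo and 5.56, 6.98, 6.34 and 5.93 under E2, with no overlap. The part of blood content in these values was not tested.

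In the list of cytokines and chemokines 15 of 30 rose and 6 fell (median 1.08). With the 18 that were well above background on all arrays, 8 rose and 4 fell, and the median was 0.041. The monocyte attractants Ccl7 and Ccl2 rose by 4.32 ± 0.39 and 3.71 ± 0.45; Ccl2 lay at −1.28, −1.55, −1.21 and −1.27 and then 1.96, 2.95, 2.33 and 2.32, highest on E2 replicate 2. Il11, a cytokine of decidualisation, rose by 3.74 ± 0.13 and Il6 by 3.56 ± 0.41 (1.22 with normexp). Ccl3 had a difference of 0.83 ± 0.50 (limma adjusted p = 0.165), and Cxcl2 was well above background on 1 of 8 arrays. Of 10 granulocyte markers 3 rose and 0 fell (median 0.11), where 30.1% of all genes rose and 27.3% fell. S100a8 rose by 2.67 ± 0.45, Ly6g by 2.10 ± 0.49 and Camp by 0.61 ± 0.22, while Elane and Mpo had differences of 0.14 and −0.13. The dimmer Camp probe was not called, with a difference of 0.16 (limma adjusted p = 0.341 over probes). Of 12 macrophage markers 2 rose and 3 fell, and of 14 lymphocyte and natural killer markers 0 rose and 5 fell. The B cell gene Ms4a1 stood at −2.55, −2.55, −0.16 and −2.10 under placebo, so that replicate 3 was far above the others. The part of these cells in the cytokine values was not tested.

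Transport and epithelial genes moved in both directions. Water channels, ion channels and exchangers numbered 26 on the list, with 11 called higher and 5 lower. The water channel gene Aqp8 lay at −3.66, −3.78, −3.92 and −4.07 and then 1.85, 1.65, 1.24 and 1.09, a rise of 5.32 ± 0.26 or 39.8-fold (limma adjusted p = 2.8e-15), Aqp3 rose by 3.24 ± 0.21 and Aqp5 by 3.22 ± 0.30, while Aqp11 fell (−2.35 ± 0.15). Aqp7 had a difference of −0.32 ± 0.17 (adjusted p = 0.123) and the chloride channel regulator Clca3a1 one of −0.35 ± 0.24 (adjusted p = 0.221). Of 27 cornified envelope, keratin and secretory genes 17 rose and 1, the secretory protease inhibitor Wfdc2, fell (−0.89), with a median of 2.18. With the 20 that were well above background on all arrays, 11 rose and 2 fell, and the median was 0.78. After quantile normalization 16 of the 27 rose and 4 fell. Krt18, a keratin of simple epithelium, had a difference of −0.47 ± 0.20 (adjusted p = 0.0504) and Prom1, a protein of apical membranes, one of −0.45 ± 0.26 (adjusted p = 0.148). Beside these, 9 of 18 epithelial markers rose and 2 fell (median 0.34), against 7 and 5 with a median of 0.095 after quantile normalization. The keratin Krt7 (2.42), Cdh1, E-cadherin (0.78), and Epcam (0.34) were among those called higher, the 2 called lower were the transcription factors Ehf (−0.89) and Msx1 (−0.42), and the part of epithelial content was not tested.

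Of 27 junction genes 9 rose and 8 fell, and the median of 0.12 became −0.026 after quantile normalization. Cldn1, a tight junction protein, lay at −2.38, −1.84, −1.90 and −1.89 and then −6.53, −6.97, −5.71 and −5.04, a change of −4.06 ± 0.50 (limma adjusted p = 8.86e-08), with 2 of 4 E2 arrays well above background (−1.67 with normexp). Cldn8 also fell (−2.28 ± 0.21), whereas Cdh3, P-cadherin, and Gja1, connexin 43 of myometrial gap junctions, rose by 2.29 ± 0.16 and 2.29 ± 0.15. Cldn3 had a difference of −0.65 ± 0.28 (adjusted p = 0.0502) and Tjp3 one of 0.28 ± 0.15 (adjusted p = 0.114). Of 46 matrix genes 22 rose and 12 fell. Has1, which makes hyaluronan, lay at −4.08, −4.24, −4.81 and −4.90 and then 1.32, 2.05, 1.15 and 1.46, a rise of 6.00 ± 0.32 or 64-fold (adjusted p = 1.1e-14). Adamts9, a versican protease, rose by 3.58 ± 0.17 and Mmp10, stromelysin 2, fell (−3.49 ± 0.25). Col12a1, a fibril-associated collagen, had a difference of −0.66 ± 0.29 (adjusted p = 0.054) and Mmp14 one of 0.19 ± 0.10 (adjusted p = 0.11). Of 15 stromal markers 2 rose and 8 fell, and of 14 smooth muscle markers 6 rose and 3 fell.

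The cell cycle lists showed no common direction at 6 h. Of 39 genes of G1 and S phase 14 rose and 12 fell (median 0.022, and 0.14 with median scaling). Cdkn1a, the cyclin-dependent kinase inhibitor p21, lay at 0.49, 0.89, 0.38 and 0.40 and then 4.18, 4.03, 3.91 and 4.07, a rise of 3.51 ± 0.18 or 11.4-fold (limma adjusted p = 2.99e-15). The inhibitors Cdkn1b (p27) and Cdkn2c (p18) fell (−1.54 ± 0.10 and −1.68 ± 0.16), and Pcna, the sliding clamp of DNA polymerase, rose by 1.48 ± 0.10. Mcm6, of the replicative helicase, had a difference of −0.29 ± 0.22 (adjusted p = 0.28) and E2f8 one of −0.29 ± 0.27 (adjusted p = 0.398). Of 22 mitosis genes 4 rose, 5 fell and 13 were not called. Mad2l1, of the spindle checkpoint, rose by 4.38 ± 0.14 and Tpx2, a spindle assembly factor, by 2.33 ± 0.18, while Bub1b, another checkpoint gene, and Cenpa, the centromeric histone, fell (−2.08 ± 0.26 and −1.97 ± 0.12). The division genes Cdk1 and Mki67 had differences of −0.61 ± 0.27 (adjusted p = 0.0573) and −0.41 ± 0.28 (adjusted p = 0.217).

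Circadian clock genes had the lowest median of the lists (−0.98), with 10 of 19 lower and 6 higher. The output factor Dbp lay at 6.42, 6.199, 6.35 and 5.92 and then 3.34, 3.68, 3.26 and 2.61, a change of −3.00 ± 0.28 (limma adjusted p = 4.91e-10) with no overlap. Per3 (−3.02 ± 0.20) and the repressor Nr1d1 (−2.97 ± 0.24) also fell, and the core activators Arntl, Clock and Npas2 were among those that rose, by 0.88, 1.34 and 0.78. Cry1 had a difference of 1.21 ± 0.55 (adjusted p = 0.0616) and Per2 one of 0.20 ± 0.15 (adjusted p = 0.278). Of 23 interferon response genes 12 fell and 3 rose. Ifit2 (−2.04 ± 0.11), Ifit3 (−1.65 ± 0.23) and the guanylate-binding protein gene Gbp3 (−1.66 ± 0.25) fell. The genes that rose were Mx1 (1.79 ± 0.32), Irf9 (0.48) and Isg15 (0.78). Oas3 had a difference of 0.57 ± 0.27 (adjusted p = 0.077) and Usp18 one of −0.43 ± 0.22 (adjusted p = 0.106).

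Of 28 genes of ketone and fatty acid oxidation 12 fell and 6 rose (median −0.23, from −0.40 after quantile normalization to −0.11 with median scaling). The coactivator Ppargc1a (−2.35 ± 0.19) and the β-oxidation enzyme Hadh (−1.54 ± 0.12) fell, and Bdh1, which interconverts ketone bodies, rose by 1.89 ± 0.28. Ucp3, a mitochondrial uncoupling protein, had a difference of −0.24 ± 0.14 (limma adjusted p = 0.15). Adipocyte markers, which also belong to this metabolism, differed widely among arrays: Adipoq lay at 1.24, 3.23, 0.68 and 1.99 under placebo and 0.49, 3.53, 1.62 and −2.53 under E2. E2 replicate 2 was the highest array and E2 replicate 4 the lowest, in Adipoq as in the mean of the 9 markers (−0.27 to 1.77 under placebo, −2.42 to 2.22 under E2). By limma 0 of the 9 adipocyte markers were called, and 0 had an unadjusted p under 0.05. Without E2 replicate 4, 15082 genes in all were called, against 15514 with it.

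Among 28 genes that act with ERα at the membrane, in its caveolae or in the kinase pathways it is known to use, 16 rose and 6 fell (median 0.37; 0.14 with 12 higher and 7 lower after quantile normalization). Nos3 lay at 2.23, 2.23, 2.04 and 2.08 and then 4.40, 4.67, 4.27 and 4.29, 4.8-fold higher with E2 (limma adjusted p = 3.65e-13). Akt1, a kinase downstream of PI3K, rose by 1.54 ± 0.094, and Gper1, a G protein-coupled receptor of estrogens, fell (−1.96 ± 0.19). Strn, striatin, which tethers ERα, had a difference of −0.26 ± 0.12 (adjusted p = 0.0671) and Pik3r1, a PI3K regulatory subunit, one of −0.32 ± 0.18 (adjusted p = 0.135). Of 20 genes of MAP kinase feedback 11 rose and 6 fell. Dusp8, Dusp5 and Dusp2, phosphatases of MAP kinases, rose by 2.87 ± 0.36, 2.14 ± 0.30 (0.76 with normexp) and 1.93 ± 0.25, and Spry2, an inhibitor of receptor tyrosine kinases, had a difference of 0.37 ± 0.17 (adjusted p = 0.0625). Spry4 was well above background on 2 of 8 arrays.

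Of 30 steroid receptors, coregulators and hormone metabolism genes 6 rose and 11 fell, with a median of −0.064 that became 0.059 with median scaling and −0.34 (5 higher and 18 lower) after quantile normalization. Cyp1b1, which hydroxylates E2, lay at 0.91, 1.31, 1.07 and 1.18 and then −3.96, −2.90, −2.82 and −3.23, a change of −4.34 ± 0.36 or 20.3-fold lower (limma adjusted p = 6.13e-11). Ahrr, a repressor of the aryl hydrocarbon receptor, fell too (−3.09 ± 0.35, −1.21 with normexp and −1.69 over the mean of its probes). Nrip1, an E2-induced corepressor, rose by 2.06 ± 0.095 and Stat5a, a transcription factor of prolactin signalling, by 2.39 ± 0.11, while Ahr, the aryl hydrocarbon receptor, had a difference of 0.28 ± 0.18 (adjusted p = 0.177). Genes often used as constant references moved as well: 9 of 14 rose and 1, Rpl13a, fell (−0.23). Gapdh, of glycolysis, lay at 7.25, 7.08, 7.22 and 7.15 and then 8.27, 8.36, 8.16 and 8.28 and rose by 1.098 ± 0.10, Hprt by 1.34 ± 0.12, Ywhaz by 0.98 ± 0.11 and Tfrc, the transferrin receptor, by 3.13 ± 0.092, and these 4 were called under each scaling tried. Rplp0, a ribosomal protein gene, had a difference of 0.23 ± 0.12 (adjusted p = 0.118) and B2m one of −0.36 ± 0.27 (adjusted p = 0.282).

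The response of the mutant was then set against that of MISS WT, to ask which part of it differs when the membrane receptor is present. In MISS WT 16844 genes (62.2%) were called, and 13782 genes were called in the same direction in both genotypes, which is 88.8% of the mutant's calls and 81.8% of the wild type's. In opposite directions 31 were called. Over all genes the changes of the 2 genotypes, which share no arrays, correlated at r = 0.93, with a slope of 0.873 for the mutant on the wild type (a description, since genes are not independent replicates). A test of the difference itself called 243 genes (0.898%), 66 with a more positive and 177 with a more negative response in the mutant, and 120 of them differed by 2-fold or more. Among the 7047 genes changed 2-fold in the mutant, the 95% interval of the difference from wild type lay within 2-fold either way for 4797 (68.1%) and 128 had a called difference; for the others the arrays do not settle a difference of that size. Of the 243, 68 had a mean level below −2, where 39.3% of all genes lie.

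The number of called differences depends on the arrays and the model. It was 1119 with the slide as a block, which included all 243, and 153 when the fit used the 16 arrays of the MISS line alone. It fell to 138 without MISS WT placebo replicate 3, to 160 without MISS KO placebo replicate 1 and to 161 without MISS WT E2 replicate 3, and rose to 354 without MISS WT E2 replicate 4. As a summary, genes changed at least 2-fold by E2 in the wild type of another line of the series (AF2 WT) were averaged. The mean of 3912 lowered genes was taken from that of 2984 raised genes. The changes that chose them were those of AF2 WT alone. The MISS arrays did share in the estimate of the spread, the filter on dim probes and the choice of the brightest probe. This score, set to 0 at each genotype's placebo mean, was 3.16 ± 0.107 (SD, n = 4) with E2 in the mutant and 3.27 ± 0.0982 in MISS WT, so the mutant's mean was 96.7% of the wild type's and the difference was about as large as the spread within a group.

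**Figure D4:**
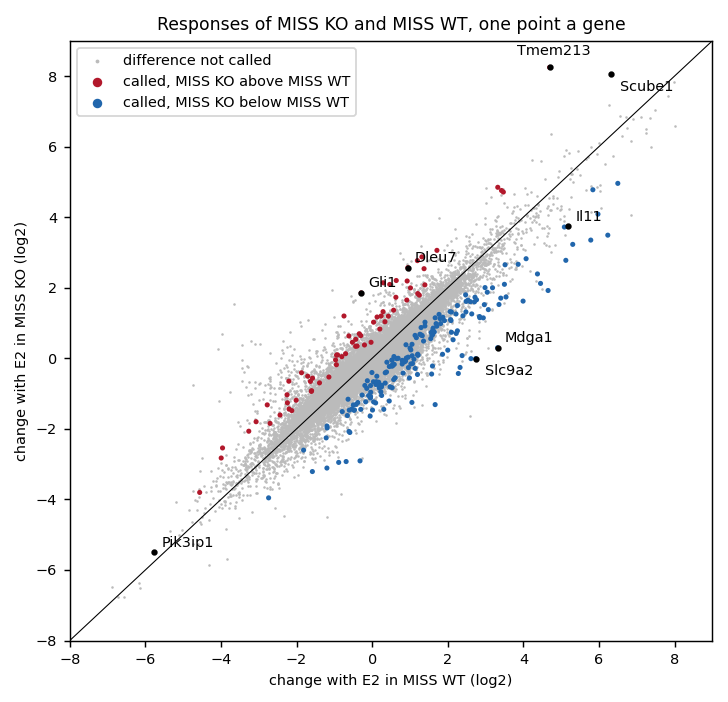
Change with E2 in MISS KO (vertical axis, log2) against the change in MISS WT (horizontal axis, log2), 1 point a gene, with the line of equal response. Most points follow the line; the 243 genes with a called difference are red where the mutant's response was more positive (66) and blue where it was more negative (177), and named genes are black.

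For Tmem213 and Ppp2r2b the genotypes differed already under placebo, and for Mdga1, given below, their placebo arrays did not overlap. Tmem213, the largest rise in the mutant, lay at −0.55, −0.38, −1.55 and −0.68 under placebo and 3.89, 4.16, 3.76 and 3.81 under E2 in MISS WT. The E2 arrays of the genotypes lay close together while the mutant's placebo arrays lay far below the wild type's. The difference of responses was 3.55 ± 0.39 (limma adjusted p = 3.5e-05, and 1.98 with normexp) and the placebo levels differed by −4.08 ± 0.28 (adjusted p = 1.66e-09), a comparison in which 0.85% of all genes were called. Ppp2r2b, a regulatory subunit of protein phosphatase 2A, also had a lower placebo level in the mutant (−1.84 ± 0.19, adjusted p = 4.58e-06). It rose by 2.77 ± 0.19 in the mutant and by 1.196 in MISS WT, and the difference was 1.57 ± 0.27 (adjusted p = 0.00266).

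Gli1, a transcription factor and target of hedgehog signalling, lay at 2.14, 1.98, 2.43 and 1.40 under placebo and 3.75, 4.59, 3.71 and 3.31 under E2 in the mutant, and at 4.18, 3.03, 3.55 and 1.78 and 2.97, 2.90, 2.56 and 2.96 in MISS WT. Apart from the array at 1.78, the wild type's placebo arrays stood above all of the mutant's. The mutant's groups did not overlap, whereas the wild type's placebo arrays spread widely around its E2 arrays. The difference was 2.14 ± 0.47 (limma adjusted p = 0.0214), was not called with the MISS line fitted alone (adjusted p = 0.139) and fell to 1.26 (adjusted p = 0.115) over the mean of its probes, of which the second, dim one had a difference of −0.13 in the mutant. Ihh, its upstream ligand, rose by 3.99 in the mutant and 1.77 in MISS WT, a difference of 2.22 ± 0.87 (adjusted p = 0.32). Tmem119, a transmembrane protein of bone and microglia, and Dleu7, a gene of a region deleted in leukaemia, also rose more in the mutant, with differences of 1.63 ± 0.28 and 1.62 ± 0.30. For Oit1 the difference of 1.94 ± 0.48 (adjusted p = 0.045) was lost under other background correction, scaling and filter settings.

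Of the responses that were smaller in the mutant, that of Mdga1, a glycosylphosphatidylinositol-anchored adhesion protein, was the most different. It lay at −1.78, −2.09, −2.03 and −1.63 and −1.84, −1.98, −1.49 and −1.03 in the mutant, and at −3.80, −2.42, −3.64 and −2.31 and −0.063, 0.36, 0.19 and 0.61 in MISS WT. Under placebo each mutant array already stood above each wild type array. The mutant's groups overlapped, while each wild type E2 array stood above all other arrays. The difference was −3.02 ± 0.41 (limma adjusted p = 0.000223). Slc9a2, a sodium-proton exchanger, had E2 minus placebo values of −0.0095 in the mutant (not called) and 2.74 in MISS WT (difference of responses −2.75 ± 0.40, adjusted p = 0.00044, and −1.59 with normexp). Col26a1, a collagen gene measured also under its older name Emid2, had E2 minus placebo values of −0.43 and −0.26 in the mutant, neither called, and of 2.28 and 2.32 in MISS WT. The differences of responses were −2.71 ± 0.45 and −2.58 ± 0.37. Fam163a was well above background on 0 of 8 arrays of the mutant, so its difference of −2.73 ± 0.52 rests on the wild type. Disp2, a dispatched-family protein, was above background on 2 of 8 mutant arrays. Its difference was −2.98 ± 0.60 (adjusted p = 0.0113), not called with the MISS line alone (adjusted p = 0.0533).

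Of the 725 listed genes, cell markers aside, 18 (2.48%) had a called difference of responses by limma, against 0.898% of all genes. By the same test 126 (17.4%) had an unadjusted p under 0.05, against 10.7% of all genes. The lists were made with earlier results of these data known, so these shares describe the lists and do not test them. Il11 lay at −4.03, −4.01, −3.87 and −3.99 and 1.26, 1.28, 1.33 and 0.96 in MISS WT, so that each of its E2 arrays stood above the mutant's, and the difference of responses was −1.45 ± 0.19 (limma adjusted p = 9.89e-05). Dnajb9, a co-chaperone of the endoplasmic reticulum, had E2 minus placebo values of 0.072 ± 0.086 in the mutant, not called, and 1.06 ± 0.086 in MISS WT. The difference of responses was −0.99 ± 0.12 (limma adjusted p = 8.23e-05), 1 of 2 called among the 23 chaperone genes. The other was Herpud1, of the degradation machinery of that organelle, at −0.81 ± 0.13 (adjusted p = 0.00134). At an unadjusted p under 0.05 there were 11 of these 23 genes, 6 of 16 cytosolic heat shock genes and 10 of 31 vascular genes, with median differences of −0.29, −0.28 and −0.067, against −0.072 over all genes. The mitosis list had 6 of 22 at that limit and 0 called, with a median difference of 0.495. Its median change was −0.42 in MISS WT, with 3 higher and 10 lower, and −0.0060 in the mutant. Water and ion transport had 7 of 26, with 2 called and a median difference of 0.13. Of the vascular genes Epas1, a hypoxia-inducible factor (−0.76 ± 0.14), and Nrp1, a co-receptor of Vegfa (−0.79 ± 0.19), were called. The value of Epas1 is from its brightest probe, which rose by 0.85 in the mutant. Its other probes differed there by 0.13 (limma adjusted p = 0.156 over probes, not called) and 1.71. By limma 0 differences were called in the ribosome biogenesis, tRNA synthetase, immediate early and estrogen-induced lists, with 3 of 39, 0 of 19, 4 of 26 and 10 of 38 genes at an unadjusted p under 0.05. For Pgr the difference was 0.11 ± 0.16, for Igf1 0.083 ± 0.18, for Vegfa 0.19 ± 0.18, for Nos3 −0.064 ± 0.20 and for Greb1 1.40 ± 0.63 (adjusted p = 0.42), none of them called. Among the kallikreins 1 of 13 had a called difference, Klk1b8, named after its value was seen (−1.06, adjusted p = 0.0483).

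**Figure D5:**
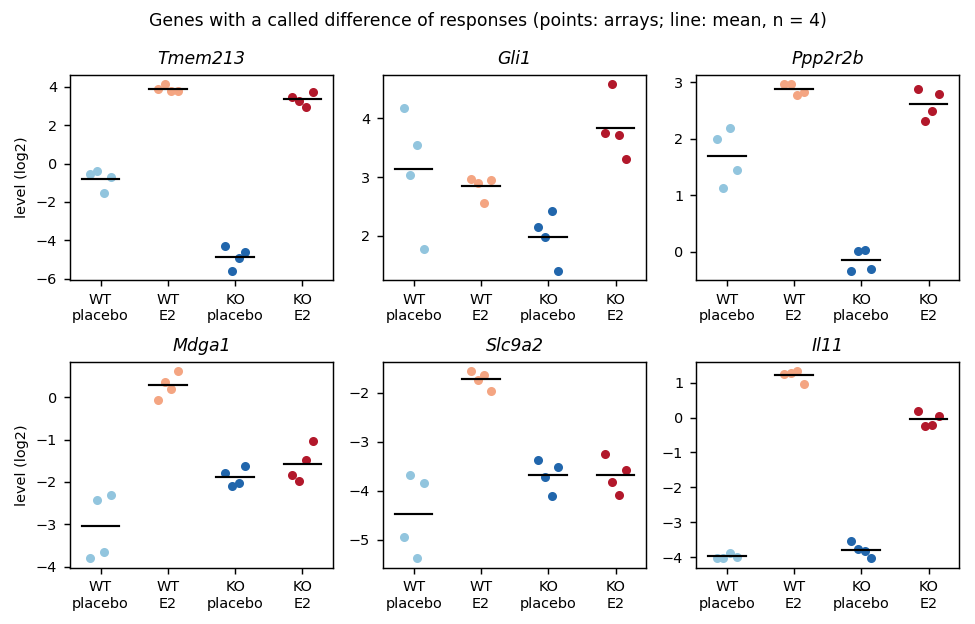
Levels of 6 genes with a called difference of responses (vertical axis, log2 relative to the array's 75th percentile, each panel with its own range) in MISS WT and MISS KO under placebo and E2, with 1 point an array and a line at the mean of 4. Tmem213 and Ppp2r2b differ at placebo, and the placebo arrays of Mdga1 do not overlap between genotypes. Mdga1 and Slc9a2 rise in MISS WT alone, Gli1 is called higher in MISS KO alone and Il11 rises in both, to a lower level in MISS KO.

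The full palindromic estrogen response element, whose arms GGTCA and TGACC stand 3 bases apart, was searched in RefSeq promoters (GRCm38.p6), from 250 bases before to 50 bases after each start, on both strands. It was present in 20 of 27025 genes (0.074%), in 3 of 4925 that rose (0.0609%), 1 of 4164 that fell (0.024%) and 4 of 4783 not called (0.0836%). One arm of that palindrome, GGTCA on either strand, was found in 42.8%, 42.4% and 43.5% of these promoters, against 43.6% of all. Of the genes with the full element Pde10a, a phosphodiesterase of cyclic nucleotides, named after its value was seen, had the largest rise (2.498 ± 0.22, limma adjusted p = 1.64e-10). Its promoter, chr17:8849735-8850034 on the plus strand, is shown with the element in capitals, its first base 17 bases after the start.
Pde10a: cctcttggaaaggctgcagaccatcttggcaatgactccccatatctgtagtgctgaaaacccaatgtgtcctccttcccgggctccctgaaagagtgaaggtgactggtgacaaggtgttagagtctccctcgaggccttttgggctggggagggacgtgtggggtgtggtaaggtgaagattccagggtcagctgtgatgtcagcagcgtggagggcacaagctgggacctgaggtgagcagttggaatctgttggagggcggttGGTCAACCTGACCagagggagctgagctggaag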

How the data were processed

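Single-dye Agilent arrays of uterus RNA were deposited as scanner output with intensity values per spot. Per the file headers, Feature Extraction 10.10.1.1 had subtracted the background and a spatial trend and given the annotation on mm9; no step between arrays was recorded. The authors' deposited value table (log2, 43753 probes, equal medians on all arrays, 83 empty cells, steps not given in the sources used here) served as an alternative.

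Processed intensities were set to log2 and the array's 75th percentile was subtracted. Of 62976 spots, 59305 were no controls and gave 55681 probes; 40336 probes that all arrays of 1 or more groups showed well above background represented 27060 genes, each by its brightest probe (18812 have 1). RefSeq accessions named 27235 probes and changed 2838 names. One limma 3.58.1 model (R 4.3.3) with 8 group means and 23 residual degrees of freedom was fitted to 31 arrays, with Benjamini-Hochberg adjustment per contrast; it was tested on simulated data. The arrays' number limits precision, and depth in reads does not apply.

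Named genes are the 12 largest rises and falls, per list up to 4 called and 2 uncalled members, fixed E2 target genes, the 6 largest differences from MISS WT in each direction and telling markers. Others, such as the 5 or fewer members moving against a list, were chosen after their values were seen. The members and lists were chosen with earlier results of these data known. Some genes that the rule names are not reported here, though list counts and medians include them. Areg, on the fixed list, did not pass the filter on dim probes. Alternatives were other background corrections, scalings, filters, probe rules, samples and a slide block.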

Additional observations from a re-analysis of the deposited data

Results flagged for a closer look

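In 18 of 356 groups of 4 arrays (178 named genes under placebo and under E2), 1 array lay apart from the other 3, by a gap of more than 0.829 of the group's range, and chance alone marks about 1 in 20 such groups. E2 replicate 2 was lowest in Esr1 (2.84, the next array at 3.36), in the tight junction gene Cldn8 (−2.23), the clock gene Cry1 (−3.997) and the Wnt inhibitor Sfrp2 (0.78). E2 replicate 4 was highest in Gja1 (0.70) and Paics (3.13) and lowest in Pik3ip1 (−2.06) and Sesn1 (0.21), and E2 replicate 3 was lowest in Sprr2f (3.55). Placebo replicate 1 was lowest in Cdkn1b (3.48) and Cldn1 (−2.38) and highest in Pmvk (3.73). Placebo replicate 2 was lowest in Col12a1 (−2.12) and Tpx2 (−3.28). Placebo replicate 3 was lowest in C3 (5.95, the next array at 6.77) and highest in Bub1b (−0.098). Placebo replicate 4 was lowest in Hspd1 (3.69) and highest in Nsdhl (−0.18).

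The E2 response of 14 named entries, not all of them different genes, differed between MISS KO and MISS WT by the limma test of that difference (KO minus WT, log2). It was more positive in the mutant for Tmem213 (3.55 ± 0.39), Gli1 (2.14 ± 0.47), Oit1 (1.94 ± 0.48), Tmem119 (1.63 ± 0.28), Dleu7 (1.62 ± 0.30) and Ppp2r2b (1.57 ± 0.27). It was more negative for Mdga1 (−3.02 ± 0.41), Disp2 (−2.98 ± 0.60), Slc9a2 (−2.75 ± 0.40), Fam163a (−2.73 ± 0.52), Col26a1 (−2.71 ± 0.45), Emid2 (−2.58 ± 0.37, the same gene), Il11 (−1.45 ± 0.19) and Dnajb9 (−0.99 ± 0.12).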

How the results depend on the processing

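The count of 15514 genes called in the mutant ran from 13789 (22340 tested, well above background on all arrays) to 17663 (slide as a block), from 14829 to 15082 with 1 mutant array left out, and the 2-fold count and the response score stayed within 1.5 times and the spread between arrays. The count of called differences from MISS WT was 1119 with the slide as a block and 153 with the MISS line alone, against 243, and ran from 138 (without MISS WT placebo replicate 3) to 354 (without MISS WT E2 replicate 4) with 1 array left out. Medians of 7 of 39 lists changed sign: junction genes (−0.026, quantile normalization), macrophage markers (−0.10, quantile normalization), steroid receptors and coregulators (0.059, median scaling), endothelial markers (0.093, median scaling), growth factors (0.12, median scaling), mitosis genes (0.12, median scaling) and markers of ovary, oviduct and vagina (0.055, strict filter). With normexp, Disp2 in the mutant was −0.11 and the Oit1 difference 0.71, neither called; the cause was not tested. No paired analysis was possible because the replicate numbers follow the order of deposition; the slide block, which joins arrays by slide, is the nearest fit. Signal near background limits folds of dim genes, and 4 arrays a group limit differences between genotypes.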
